A study of Mus musculus with 12 samples.

Results

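The 12 RNA libraries of this series fall into 6 groups of 2, and in every group 1 library title ends in rep1 and the other in rep2. The comparison described here sets the 6 libraries numbered 2 (set 2) against the 6 numbered 1 (set 1), which takes in 12 of 12 samples, with the group as a term, so that the difference is read within 6 pairs. The cells are tumour organoids of the mouse pancreas, cultures of carcinoma epithelium kept in a Matrigel dome with mouse complete organoid medium. They come from 2 lines of C57/Bl6 background, mT6 and mT69a, both with the alleles Trp53LSLR172H/LOH and Pdx1-Cre, in which a Cre recombinase driven by the Pdx1 promoter switches on mutant Trp53 in the pancreatic lineage. Each line gave 3 groups. The control group is a Rosa26 knock-out clone carrying the Empty vector, the knockout group a Spdef knock-out clone carrying the Empty vector, and the vector group the Spdef knock-out clone carrying the SPDEF over-expression vector. Each line is represented by 1 Spdef knock-out clone. The labels give no meaning to the replicate number, such as a passage, a culture day, an extraction or a library run. Nothing in them says that a group's libraries were grown apart, and p-values here cover no more than the scatter among these 12 libraries, which may be technical.

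Immediate early genes such as Fos, Egr1 and Dusp1 are transcribed within minutes of a change in growth factors, medium or mechanical load, and their mRNAs are short-lived. Targets of ATF4 follow amino acid and respiratory stress, and sterol and fatty acid genes follow the lipid supply through SREBP factors. Mitochondrial transcripts, RNAs retained in the nucleus and transcripts with introns make up a part of total RNA that depends on the cells and also on how RNA is extracted and depleted of ribosomal RNA.

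Depth ran from 9094295 to 28903831 counts per library. It was unequal in the mT6 control pair (11589956 in set 1 and 28903831 in set 2) and the mT6 knockout pair (10897005 and 21670653), and alike in the mT6 vector pair (9111713 and 9094295). Levels below are CPM, counts scaled to a common library size. Summed over 12 epithelial and duct markers, the level was 5694 to 7546 CPM in set 1 and 4293 to 5926 CPM in set 2. Fibroblast markers summed to 0 to 0.762 CPM in set 1 and 0.261 to 0.704 CPM in set 2, and Col3a1, Lum and Thy1 had no count. The 10 immune markers summed to 12.6 to 24.5 CPM in set 1 and 10.6 to 19.3 CPM in set 2, nearly all of it Cd14 and Cd68. Cd14 fell by 0.28, a call lost without the mT6 control, mT6 knockout or mT69a vector pair (adjusted p 0.0565 to 0.0769), while Adgre1 and Cd3e had no count and Ptprc reached at most 3 counts in a library. Acinar markers summed to at most 4.72 CPM in set 1 and 3.86 CPM in set 2. Spdef, the deleted gene, lay at 2.29 CPM in the mT6 control library of set 1 and 1.04 CPM in that of set 2, and at 0 to 0.269 CPM in the other 10, those labelled as over-expressing SPDEF included. It did not pass the test between the sets (log2 fold change -0.76 ± 0.60 SE, adjusted p 0.376, edgeR).

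Of 14473 genes tested, 3768 (26.0%) differed between the sets at an adjusted p under 0.05, 1821 higher in set 2 (12.6%) and 1947 lower (13.5%). All 6 pairs had the same direction for 2921 of the 3768, and the 6 libraries of set 2 lay wholly above or wholly below those of set 1 for 325. Of the 130 genes that fell by more than 2-fold, 116 were protein-coding. Among known genes of at least 5 CPM on average with the same direction in all pairs, the chemokine Cxcl2, the cytokine Il1a, the phosphatase Dusp1 and the YAP target Ankrd1 fell most, at log2 fold changes of -2.76 to -2.34. Of the 450 that rose by more than 2-fold, 104 were protein-coding. On the deposited TPM every value is a share of a total that includes mitochondrial RNA. There the split was 260 higher and 4831 lower of 13265 genes tested. Mitochondrial RNA as a share of TPM was higher in set 2 by 6.44 ± 3.09 percentage points (SD over 6 pairs). How much of the split on TPM this accounts for was not tested. The median gene stood at -0.21 on TPM against -0.02 in the count fit. Directions are therefore given relative to the bulk of genes, with values on TPM beside many of the groups.

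The difference was present in both lines, and the typical size was larger in mT6. Fitted in the 6 mT6 libraries alone, 3896 of 13172 genes passed (29.6%), and in the 6 mT69a libraries alone 221 of 13559 (1.63%). The lines share no library. Of 3740 genes called in mT6 and measured in both lines, 89.4% had the same direction in mT69a, and of 213 called in mT69a, 94.4% had the same direction in mT6. Over all 12626 genes measured in both it was 73.1%. Pearson's r between the lines was 0.502 over these genes, given as a description, since genes are not independent replicates. Among genes called in the 12-library fit the median size of the log2 fold change was 0.456 in mT6 and 0.274 in mT69a. Fitted in each line alone, many lists described below held more calls in mT6 than in mT69a. Lower were 21 and 6 immediate early genes, 20 and 0 PERK-ATF4 targets and 12 and 0 glycolysis genes. Also lower were 7 and 0 heat shock, 17 and 0 proteasome and 25 and 0 cytosolic ribosomal protein genes. Higher were 9 and 7 mitochondrial mRNAs, 10 and 0 fatty acid and 15 and 1 cholesterol synthesis genes. Leaving out either library of a pair takes the pair out of the comparison. Without the mT6 knockout pair the number of genes called was 1895 (set 1 library left out) or 1872 (set 2 library left out), and without the mT6 control pair 2069 or 2033. Of 355 called genes that the rule names or the lists hold, 188 were called with every library left out in turn.

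**Figure D1:**
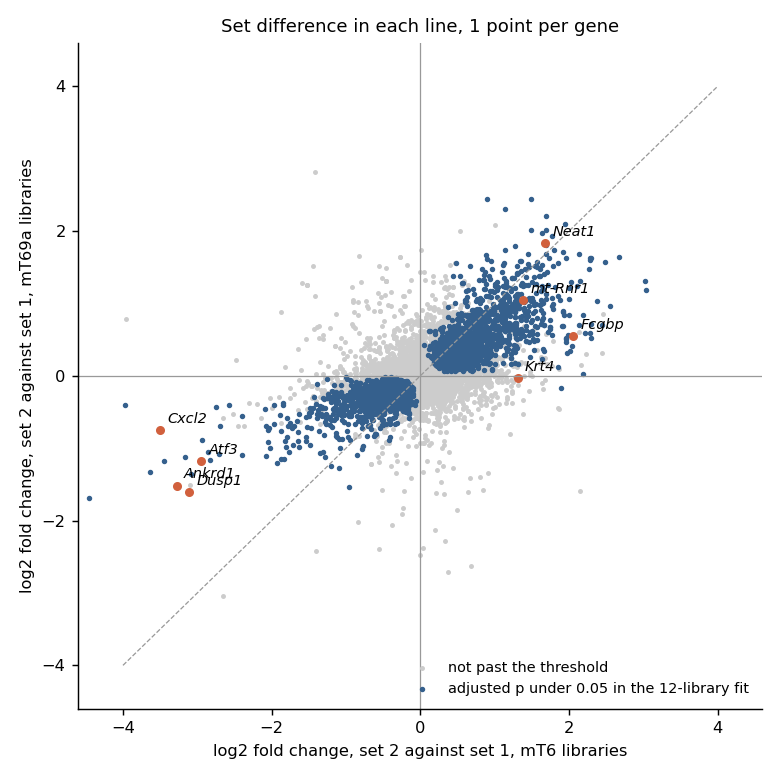
Each point is a gene, with its log2 fold change of set 2 against set 1 in the 6 mT6 libraries (x axis) and in the 6 mT69a libraries (y axis). Blue points passed an adjusted p of 0.05 in the 12-library fit, the dashed line marks equal change, and 12 genes lie outside the plotted range. Most blue points lie in the quadrants of shared direction, with Cxcl2, Atf3, Dusp1 and Ankrd1 far to the left.

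Mitochondrially encoded RNA was higher in set 2. The mitochondrial genome encodes 13 subunits of the respiratory chain and ATP synthase, 2 ribosomal RNAs and 22 tRNAs (which had no counts here), all transcribed as long precursors. Of the 13 mRNAs 9 rose and none fell (median log2 fold change 0.57, against -0.02 over all genes tested), and both rRNAs rose. The complex I subunit mt-Nd1 lay at 1547, 1325 and 1570 CPM in the mT6 control, knockout and vector libraries of set 1 and at 2707, 2620 and 2723 CPM in those of set 2. In mT69a, in the same order, it lay at 2464, 2235 and 2606 CPM in set 1 and at 3608, 3898 and 4110 CPM in set 2. The sets did not overlap, and the log2 fold change of mt-Nd1 was 0.77 ± 0.06 (SE), a rise with an adjusted p of 3.6e-05 by edgeR's quasi-likelihood test. It had values of 0.88 in mT6 and 0.68 in mT69a.

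The ATP synthase subunit mt-Atp8 rose by 1.07 ± 0.08 (adjusted p 3.6e-05), from 221 to 284 CPM in set 1 to 436 to 639 CPM in set 2. Cytochrome b (mt-Cytb) rose by 0.70 ± 0.07 and mt-Co1, the core of cytochrome oxidase, by 0.53 ± 0.06. The further complex I subunits mt-Nd2, mt-Nd3, mt-Nd4, mt-Nd5 and mt-Nd6 rose by 0.74, 0.79, 0.41, 0.57 and 0.49. The 4 that did not pass were mt-Atp6 (0.64 ± 0.29, adjusted p 0.162), mt-Co2 (0.44 ± 0.24, adjusted p 0.228), mt-Co3 (0.29 ± 0.11, adjusted p 0.0935) and mt-Nd4l (0.19 ± 0.10, adjusted p 0.204). For mt-Co2 the lines differed in value, 0.92 in mT6 and 0.00 in mT69a, a difference that did not pass its own test (adjusted p 0.242). Nuclear pseudogene copies with the same bases as mitochondrial genes, given below, also took counts. How reads were divided between genes and copies was not tested, so values of single mRNAs, these 4 among them, carry that uncertainty. The rRNA of the small subunit, mt-Rnr1, rose by 1.20 ± 0.20 (adjusted p 0.00921) and that of the large subunit, mt-Rnr2, by 0.72 ± 0.07 (adjusted p 0.000148). On TPM 7 of the 13 mRNAs and both rRNAs were still called higher.

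As a share of all counts, mitochondrial RNA made up 12.7 to 15.5% (median 14.9%) in set 1 and 18.6 to 27.1% (median 22%) in set 2, without overlap, a difference of 7.76 ± 3.14 percentage points (SD over 6 pairs). It was higher in 6 of 6 pairs, which gives the smallest p that an exact sign-flip permutation test over 6 pairs allows (two-sided p = 0.03125, 0.067 after adjustment over 15 library measures). Most of it was rRNA, at 11.3 to 13.8% in set 1 and 16.6 to 25% in set 2, while mRNAs took 1.28 to 1.73% and 1.85 to 2.14%. How far rRNA depletion differed between libraries was not tested.

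Few nuclear genes for the same organelle were called higher, where 12.6% of all genes rose and 13.5% fell. Of 77 nuclear-encoded respiratory chain subunits 2 rose, Cox7b of complex IV by 0.29 and Uqcrb of complex III by 0.26, and 10 fell, among them Atp5b by 0.23 and Atp5e by 0.31, both of ATP synthase. None of 78 mitochondrial ribosomal protein genes rose and 14 fell, led by Mrpl38 (-0.41 ± 0.08). With the trend of the ratio over transcript length removed, an alternative chosen after the data were seen, those falls numbered 4 and 5. DESeq2 called 6 and 3 lower, counts thinned to equal depth 8 and 5, and nuclear protein-coding genes fitted alone 6 and 5, while on TPM 62 and 63 were lower. With a library left out they numbered 2 to 11 (lowest without the mT6 knockout pair, also under 7 without the mT6 control and mT69a control pairs) and 4 to 11 (7 or fewer without any pair but the mT69a knockout pair). Of 15 genes of mitochondrial protein quality control 6 fell, among them the protease gene Lonp1 (-0.31 ± 0.07), and 2 or 3 fell without the mT6 control, mT6 knockout or mT69a control pair, or 3 with DESeq2. Of 31 genes of mitochondrial gene expression the DNA-binding Ssbp1 rose by 0.43, and Fastk, Esrra and Nrf1 fell by 0.31, 0.24 and 0.22, of which Fastk alone was called without the mT6 control or knockout pair. Pseudogene copies whose 25-base words all occur in mitochondrial DNA had values of 1.11 (Gm10925), 0.73 (Gm28661), 0.68 (Gm28437) and 0.79 (Gm10222). Their mean levels were 1530, 2802, 2452 and 68.8 CPM, and each was higher in set 2 in 6 of 6 pairs. A further such copy, Gm28439, stood at 0.27 and did not pass (adjusted p 0.570, edgeR), higher in 3 of 6 pairs. Reads of these copies cannot be told apart from those of the mitochondrial genes.

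**Figure D2:**
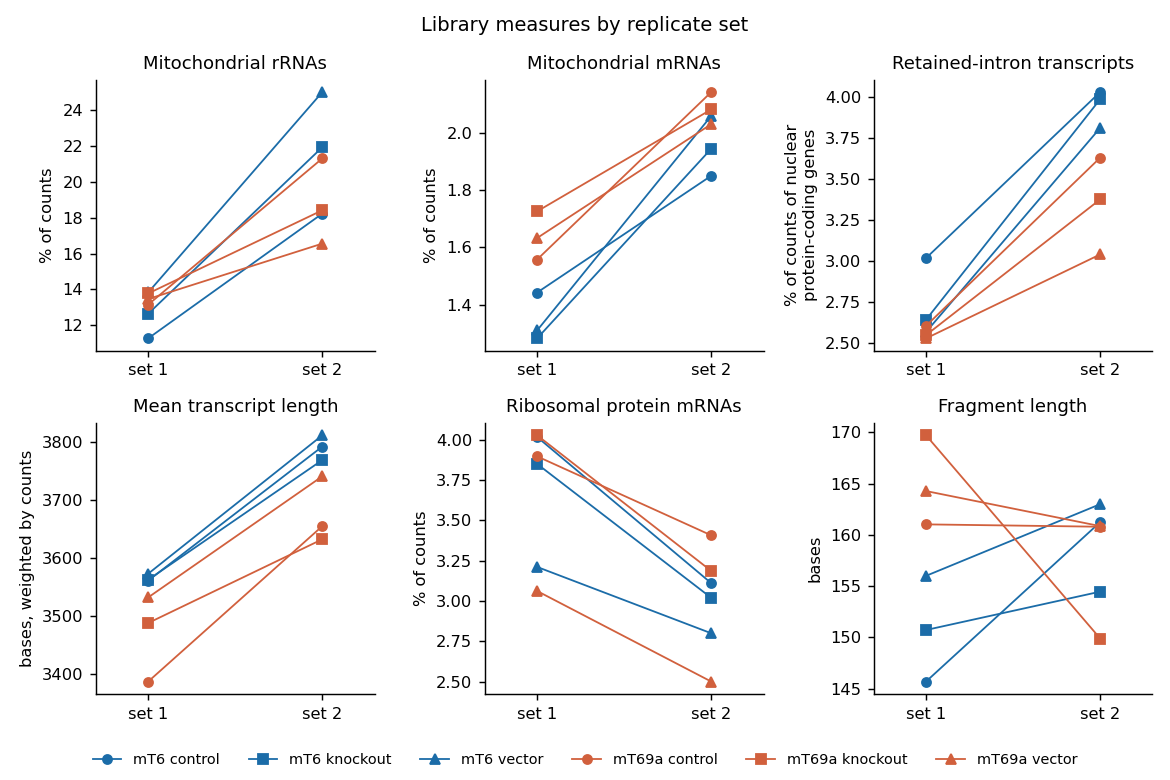
Each line joins the set 1 and set 2 libraries of a group, blue for mT6 and orange for mT69a, for 6 measures of a library: shares of counts in percent, the mean transcript length weighted by counts and the fragment length, in bases. Mitochondrial rRNA and mRNA, retained-intron transcripts and transcript length are higher and ribosomal protein mRNA lower in set 2 in all 6 pairs, while fragment length runs both ways.

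The long noncoding RNAs Neat1, Malat1 and Kcnq1ot1, which stay in the nucleus, were higher in set 2. Neat1, the scaffold of paraspeckles, lay at 607, 761 and 668 CPM in the mT6 control, knockout and vector libraries of set 1 and at 2395, 2467 and 1640 CPM in set 2. For mT69a the levels were 241, 179.5 and 298 CPM in set 1 and 1490, 381 and 979.7 CPM in set 2. All 6 pairs rose in value, the mT69a knockout pair least in CPM, and the fitted rise was 1.73 ± 0.21 on the log2 scale (adjusted p 0.00416). Malat1, a speckle-associated RNA, rose by 1.0 ± 0.13 (adjusted p 0.00237), from 2239 to 4575 CPM in set 1 to 4411 to 11320 CPM in set 2. Kcnq1ot1, the imprinted antisense RNA of the Kcnq1 locus, rose by 1.28 ± 0.09 (adjusted p 3.6e-05), and by 0.48 with the trend of the ratio over transcript length removed (adjusted p 0.0173). Of 20 measured nuclear long noncoding RNAs and snoRNA host genes 9 rose and none fell, where 12.6% of all genes rose, including the snoRNA hosts Gas5 (0.73), Snhg5 (0.49) and Snhg1 (0.31). On TPM 4 of the 20 were called higher and 1 lower.

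Several noncoding classes stood above the bulk of genes, and others did not. Of 592 transcripts of the class TEC, loci that await experimental support, 52.5% rose and 0.507% fell, with a median log2 fold change of 0.88. Of 60 sense-intronic transcripts, which lie within introns of other genes on the same strand, 36 rose and 1 fell (median 0.98). Antisense RNAs (77 of 305 higher, 3 lower) and long intergenic RNAs (79 of 332 higher, 8 lower) had medians of 0.46 and 0.37. Protein-coding genes stood at a median of -0.05, with 1212 of 12220 higher and 1907 lower. Of 431 processed pseudogenes 9 rose and 16 fell (median -0.06), of 76 snoRNAs 4 rose and 2 fell (median 0.04), and none of 39 snRNAs was called. The lowest median of any pair, in the mT69a knockout pair, was 0.46 for sense-intronic and 0.52 for TEC transcripts.

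Counts assigned to retained-intron transcripts made up a larger share of the counts of protein-coding genes in set 2. In libraries of total RNA that share can include reads of RNA not yet spliced, which was not tested. Over all nuclear protein-coding genes, RSEM assigned 2.53 to 3.02% of counts to transcripts annotated as retained introns in set 1 and 3.04 to 4.03% in set 2, higher in 6 of 6 pairs (difference 0.996 ± 0.299 percentage points, SD, exact sign-flip permutation p = 0.03125, adjusted p 0.067). Gene by gene, among 4186 genes with such a transcript and at least 100 counts in every library, the share was higher in set 2 in all 6 pairs for 1467 (35.0%) and lower in all 6 for 13 (0.311%). The leading genes, named after their values were seen, include regulators of splicing. Clk1, a kinase of SR splicing factors, had 42.4, 32.1 and 29.8% of its counts on retained-intron transcripts in the mT6 control, knockout and vector libraries of set 1 and 63.3, 64.6 and 66.2% in set 2. The mT69a shares were 39.6, 37.9 and 35.4% in set 1 and 62.4, 53.3 and 64.1% in set 2, and no library of set 1 reached the lowest of set 2.

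The paralogous kinase Clk4 went from a mean of 32.5% to 57.3%, and Clk3 from 33.4% to 49%. Rbm5, a splicing regulator, went from 42.5% to 64.1%, the SR-related Srsf11 from 23.6% to 45%, and choline kinase alpha (Chka) from 25.7% to 48.9%. In each of these genes the set 2 library exceeded its set 1 partner in 6 of 6 pairs. The total level of splicing genes moved less: of 20 genes of splicing and cold stress 6 rose and none fell, among them Srsf5 (0.56 ± 0.06), Clk1 (0.43), Clk4 (0.41), Luc7l3 (0.38) and Son (0.29). Srsf11 stood at 0.02 and the cold-inducible Rbm3 at 0.00. On TPM 2 of the 20 were higher and 7 lower.

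Longer transcripts stood higher in set 2 than shorter ones. Weighted by counts, nuclear protein-coding transcripts averaged 3386 to 3573 bases in set 1 and 3632 to 3812 bases in set 2, longer in 6 of 6 pairs. The median log2 fold change was -0.11 for 799 genes with transcripts under 1 kb, -0.05 for 5266 genes of 2 to 4 kb and 0.15 for 378 genes over 8 kb. In the last class 34.1% rose and 5.03% fell, and under 1 kb 2.63% rose and 15.9% fell. The long genes include the heavy chain of cytoplasmic dynein, Dync1h1, which rose from 135 to 228 CPM in set 1 to 280.1 to 432 CPM in set 2 (1.05 ± 0.07, adjusted p 1.2e-05). GC content ran the other way: the fifth of genes with the lowest GC had a median of 0.02 and the fifth with the highest -0.13. The fragment length inferred from effective lengths, 146 to 170 bases in set 1 and 150 to 163 bases in set 2, was higher in 3 of 6 pairs. Removing the length trend left 3598 genes called, 1797 higher and 1801 lower. Among genes named here as called, it ended the calls on Acaca, Aspm, Cenpf, Fcgbp, Fdps, Krt19, Notch1, Nr1d1, Nrarp, Nrf1, Pole, Psmb8 and Utp20 (adjusted p 0.0515 to 0.304).

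**Figure D3:**
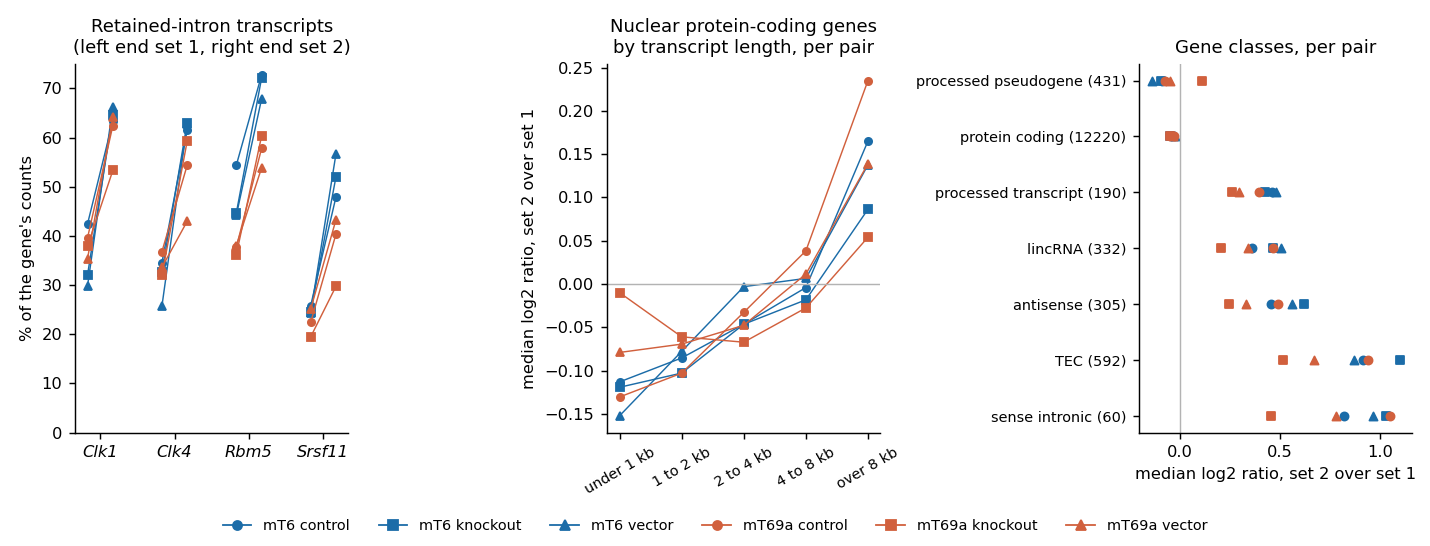
Left, the share of a gene's counts on retained-intron transcripts in percent, with the set 1 library at the left and the set 2 library at the right end of each line, for Clk1, Clk4, Rbm5 and Srsf11. Middle, the median log2 ratio of set 2 over set 1 in each pair for nuclear protein-coding genes by transcript length, which is higher for the longest class, and right, the median per pair for 7 gene classes with their numbers of genes.

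Immediate early genes were lower in set 2. Of 29 measured, 24 fell and none rose, with a median log2 fold change of -0.86, where 13.5% of all genes fell, and 22 were lower in all 6 pairs. Dusp1, the phosphatase that turns off MAP kinases, lay at 51.6, 74.9 and 102 CPM in the mT6 control, knockout and vector libraries of set 1 and at 6.64, 9.84 and 8.22 CPM in set 2. The mT69a libraries held 18.8, 19.9 and 41.3 CPM in set 1 and 11.2, 4.52 and 9.56 CPM in set 2. The sets did not overlap, and Dusp1 was 5.43-fold lower in set 2 (log2 fold change -2.44 ± 0.40, adjusted p 0.0119).

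Fos, a subunit of the AP-1 transcription factor, lay at 56.3, 69 and 93.6 CPM in the mT6 libraries of set 1 and at 20.2, 32.4 and 23.9 CPM in set 2. The mT69a libraries held 24.4, 27 and 36 CPM in set 1 and 16.6, 13.8 and 21.9 CPM in set 2. Fos fell by 1.14 ± 0.18 (adjusted p 0.00684), and every library of set 2 was below its partner. The AP-1 subunits Fosl1 and Jund fell by 1.34 and 0.84, the zinc finger factor Egr1 by 1.08 ± 0.14 (adjusted p 0.00129), and Zfp36l1, which binds AU-rich mRNAs and speeds their decay, by 0.65. Jun stood at -1.58 ± 0.46 and did not pass (adjusted p 0.0591). Its mT69a control pair ran the other way, 18.1 CPM in set 1 and 19.2 CPM in set 2. Atf3, a stress-induced repressor, fell by 2.0 ± 0.47 (adjusted p 0.0322). In mT6 Atf3 went from 20.3 to 38.4 CPM down to 2.79 to 4.13 CPM, and in mT69a from 26.8 to 46.7 CPM down to 10.3 to 23 CPM. The call on Atf3 was lost without any pair but the mT69a control pair (adjusted p 0.0662 to 0.097). With a library left out 12 to 28 of the list fell, 12 without the mT6 control or the mT6 knockout pair and 14 without the mT69a vector pair.

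The bases before the start sites of 3 genes that fell (Dusp1, Cxcl2 and Atf3) and of a sterol gene that rose (Hmgcs1) are shown because their groups moved together and each window holds a motif of the factor that its group is known for. Each run is the 250 bases before the RefSeq start site, from GRCm38.p6, read 5′ to 3′ on the gene's strand, with the match in capitals. For Dusp1 (chr17:26508473-26508722, minus strand) it is the cyclic AMP response element TGACGTCA, 143 bases before the start site. For Cxcl2 (chr5:90903649-90903898, plus strand) it is an NF-kB motif, GGGA and TTTCC with any base between them, 97 bases before it. For Atf3 (chr1:191183334-191183583, minus strand) it is TTGCATCA, an element bound by ATF4 with C/EBP, 110 bases before it. For Hmgcs1 (chr13:119690101-119690350, plus strand) it is the sterol element TCACNCCAC, 137 bases before it.
Dusp1: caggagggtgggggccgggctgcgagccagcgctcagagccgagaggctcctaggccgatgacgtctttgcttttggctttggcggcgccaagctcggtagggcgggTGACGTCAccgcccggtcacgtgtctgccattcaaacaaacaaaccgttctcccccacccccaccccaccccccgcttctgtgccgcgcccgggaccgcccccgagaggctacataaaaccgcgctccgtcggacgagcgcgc
Cxcl2: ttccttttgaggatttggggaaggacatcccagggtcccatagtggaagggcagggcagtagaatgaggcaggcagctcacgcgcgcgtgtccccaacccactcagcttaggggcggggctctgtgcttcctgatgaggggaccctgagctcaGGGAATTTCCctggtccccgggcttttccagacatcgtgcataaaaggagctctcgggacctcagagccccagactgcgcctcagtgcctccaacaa
Atf3: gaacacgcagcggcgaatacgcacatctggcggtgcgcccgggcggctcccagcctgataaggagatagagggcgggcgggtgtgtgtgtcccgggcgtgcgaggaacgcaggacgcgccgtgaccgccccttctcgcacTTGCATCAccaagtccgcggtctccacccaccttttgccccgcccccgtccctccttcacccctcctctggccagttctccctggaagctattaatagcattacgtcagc
Hmgcs1: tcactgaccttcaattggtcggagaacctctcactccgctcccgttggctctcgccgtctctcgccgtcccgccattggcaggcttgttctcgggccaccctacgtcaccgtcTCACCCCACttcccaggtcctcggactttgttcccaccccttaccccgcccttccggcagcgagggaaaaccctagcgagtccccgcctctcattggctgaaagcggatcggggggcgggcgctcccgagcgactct

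Motifs were searched on both strands of such windows of 10015 tested genes matched by symbol. TGACGTCA was in 2.73% of all windows, in 3.53% of the 1530 windows of genes that fell, in 1.26% of the 1033 of genes that rose, and in 2 of 23 windows of immediate early genes. TTGCATCA was in 0.569% of all windows and in 7 of 30 windows of ATF4 targets. The NF-kB motif was in 0.359% of all windows and in 5 of 19 windows of NF-kB targets. The TEAD motif GGAATG was in 10.6% of all windows and in 8 of 15 windows of YAP targets. TCACNCCAC was in 0.989% of all windows, in 1 of 16 windows of cholesterol synthesis genes and in none of 13 windows of fatty acid synthesis genes. The heat shock element (GAA, TTC and GAA, each 2 bases apart) was in 0.33% of all windows and in none of 14 windows of heat shock genes, and the CArG box in 1.1% of all windows and in 1 of 23 windows of immediate early genes. Among genes that fell and those that rose, TTGCATCA was in 0.85% and 0.387% of windows, and the NF-kB motif in 0.327% and 0%. TCACNCCAC was in 0.98% and 1.84%, the heat shock element in 0.327% and 0.29% and the CArG box in 1.9% and 0.968%. GGAATG was in 153 of 1530 and 114 of 1033. The AP-1 motif TGANTCA was in 4.47% of all windows, 5.69% (fell) and 4.94% (rose). It was in 1 of 23 windows of immediate early genes and in 5 of 19 of NF-kB targets. The lists hold genes known as targets of these factors, so a match is a description and shows no binding in these cells.

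Cytokines and other NF-kB targets were lower in set 2. Of 26 measured, 13 fell and none rose (median -0.96), where 13.5% of all genes fell. Fitted alone, mT6 had 20 members lower (median -1.47) and mT69a 2 (median -0.33). Il1a, the alarmin interleukin 1 alpha, lay at 102, 185 and 118 CPM in the mT6 control, knockout and vector libraries of set 1 and at 7.57, 25 and 6.69 CPM in set 2. For mT69a the levels were 3.0, 38.6 and 7.77 CPM in set 1 and 1.89, 14.2 and 3.52 CPM in set 2. All 6 pairs fell in value, and the fitted fall of Il1a was 2.68 ± 0.55 (adjusted p 0.023). The neutrophil chemokine Cxcl2 fell by 2.76 ± 0.58 (adjusted p 0.0209), with 14.3 to 31 CPM in set 1 and 1.29 to 2.17 CPM in set 2 of mT6 and 0.625 to 2.96 CPM and 0.539 to 1.48 CPM in mT69a. Its set effect differed between the lines (adjusted p 0.0273 for the difference, -3.50 in mT6 and -0.75 in mT69a). The call on Il1a was lost without any of the 3 mT6 pairs (adjusted p 0.0558 to 0.0931), and that on Cxcl2 without the mT6 control or knockout pair (0.0713 to 0.083).

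The chemokine Ccl20 fell by 1.60 ± 0.29, Tnf by 1.49 ± 0.22, the iron-trapping Lcn2 by 2.11 ± 0.36 and the interleukin 1 receptor antagonist Il1rn by 0.39 ± 0.07. Of the NF-kB subunits themselves, Relb and Nfkb2 fell by 1.08 and 0.77. The subunit gene Nfkb1 was also called, a call lost without the mT6 knockout pair. Among members that did not pass, the feedback inhibitors Tnfaip3 and Nfkbia stood at -1.41 and -0.54. With a library left out 7 to 14 members fell, 8 without the mT6 control pair and 7 without the mT6 knockout pair. The defining macrophage and lymphocyte markers were at or near 0 in both sets, as given above. Fewer cells of a type and less RNA per cell cannot be told apart in such bulk samples. Of 37 interferon response genes only Psmb8 passed, at under 2 CPM in every library, with a fall of 1.21 ± 0.40 whose call was lost without any pair but the mT69a control pair (adjusted p 0.0539 to 0.162). Without the mT69a control pair 3 of the list fell. Its median was -0.47, with 0.06 in mT6 and -0.97 in mT69a.

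Targets of YAP, a coactivator active in stretched and sparsely packed epithelium, fell in 11 of 20 cases with 1 rise (median -0.57). Among all genes 13.5% fell. Amotl2, which holds YAP at cell junctions and is induced by it, lay at 21.9, 31.8 and 35.8 CPM in the mT6 libraries of set 1 and at 9.96, 16.8 and 14.8 CPM in set 2. The mT69a libraries held 25.7, 33.3 and 29.5 CPM in set 1 and 12.9, 17.7 and 13.4 CPM in set 2. The sets did not overlap, the lines had near-equal values (-1.08 and -1.0), and the fall of 1.06 ± 0.07 had an adjusted p of 2.8e-05. Ankrd1, an ankyrin repeat protein and common YAP reporter, fell by 2.34 ± 0.40 (adjusted p 0.0138). It went from 50.5 to 76.5 CPM in set 1 to 5.4 to 6.54 CPM in set 2 of mT6, and from 40.6 to 79.2 CPM to 13.9 to 31 CPM in mT69a. The call on Ankrd1 was lost without the mT6 knockout pair (adjusted p 0.0506 to 0.0513). The matricellular Ccn1 and Ccn2 (-1.80 and -0.56) and the YAP kinase Lats2 (-0.76) fell, Yap1 itself stood at -0.14 and did not pass, and Crim1 rose by 0.37, a call lost without the set 2 library of the mT6 knockout (adjusted p 0.0509).

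Genes that report MAP kinase output fell in 10 of 21 cases with 1 rise (median -0.33), where 13.5% of all genes fell. Phlda1 lay at 46.4 to 59.3 CPM in set 1 and at 18.3 to 34.1 CPM in set 2, without overlap (-0.87 ± 0.11, adjusted p 0.00151). The ERK phosphatases Dusp6 (-0.67 ± 0.10) and Dusp5 (-1.31 ± 0.19) and the feedback inhibitor Spry2 (-0.34 ± 0.07) fell. Etv1 rose by 0.51, a call lost without the mT6 control or knockout pair (adjusted p 0.0545 to 0.128), and its relatives Etv4 and Etv5 stood at -0.13 and -0.08 and did not pass. With a library left out 5 to 12 of the list fell, 5 or 6 without the mT6 control or knockout pair. The EGF receptor inhibitor Errfi1, counted among glucocorticoid targets, fell by 0.98 ± 0.20, a call lost without the same pairs (adjusted p 0.0539 to 0.055).

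Targets of the PERK-ATF4 arm of the stress response fell in 24 of 35 cases with 1 rise (median -0.30), where 13.5% of all genes fell. Atf4 itself lay at 137, 142 and 124 CPM in the mT6 libraries of set 1 and at 99.8, 97.7 and 94.4 CPM in set 2. For mT69a the levels were 247, 243 and 231 CPM in set 1 and 176, 170.5 and 209.8 CPM in set 2. Within each line the sets did not overlap, and Atf4 fell by 0.42 ± 0.06 (adjusted p 0.00111). The leucine sensor Sesn2 fell by 0.83 ± 0.13, the pseudokinase Trib3 by 0.73 ± 0.16 and the eIF2 alpha phosphatase subunit Ppp1r15a by 1.01. Ddit3 (CHOP) fell by 0.91 ± 0.15, with reads that a second gene model of that name could share. The tRNA synthetases Wars, Gars and Nars fell by 0.36, 0.38 and 0.27, and the serine and one-carbon enzymes Psph, Mthfd2 and Shmt2 by 0.44, 0.37 and 0.32. The cystine transporter Slc7a11 stood at 0.24 and did not pass, and the arginine transporter Slc7a1 rose by 0.28. The call on Slc7a1 was lost without the mT6 knockout pair (adjusted p 0.0506 to 0.0512), and 15 genes of the list fell without it.

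Chaperone genes were lower in the cytosol and higher in the endoplasmic reticulum. Of 19 heat shock genes 9 fell and none rose (median -0.20), where 13.5% of all genes fell and 12.6% rose. Hspa1b, the inducible HSP70, lay at 190.5 to 315 CPM in set 1 and at 93.2 to 196 CPM in set 2 of mT6, and at 125 to 156 CPM and 93.7 to 139 CPM in mT69a. It fell by 0.57 ± 0.09 (adjusted p 0.00281), lower in 6 of 6 pairs. Its near-identical copy Hspa1a fell by 0.78 ± 0.15, and reads of the pair cannot be divided with certainty. The co-chaperones Bag3 and Dnajb1 fell by 0.54 and 0.41. Of 29 folding genes of the endoplasmic reticulum 10 rose, and 1, the translocon subunit Sec61b, fell by 0.27 (median 0.15). The disulfide isomerase Pdia3 rose by 0.36, the lectin chaperone calnexin (Canx) by 0.31, Hsp90b1 by 0.35 and the degradation adaptor Sel1l by 0.43. Hspa5 (BiP), the marker of the unfolded protein response, stood at 0.15 ± 0.09 and did not pass (adjusted p 0.224), and Xbp1 at 0.10. On TPM none of the 29 was called higher and 2 were lower, with a median of -0.07, or 0.14 above the median of all genes. With a library left out 4 to 12 of them rose, 4 to 6 without any of the mT6 pairs.

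**Figure D4:**
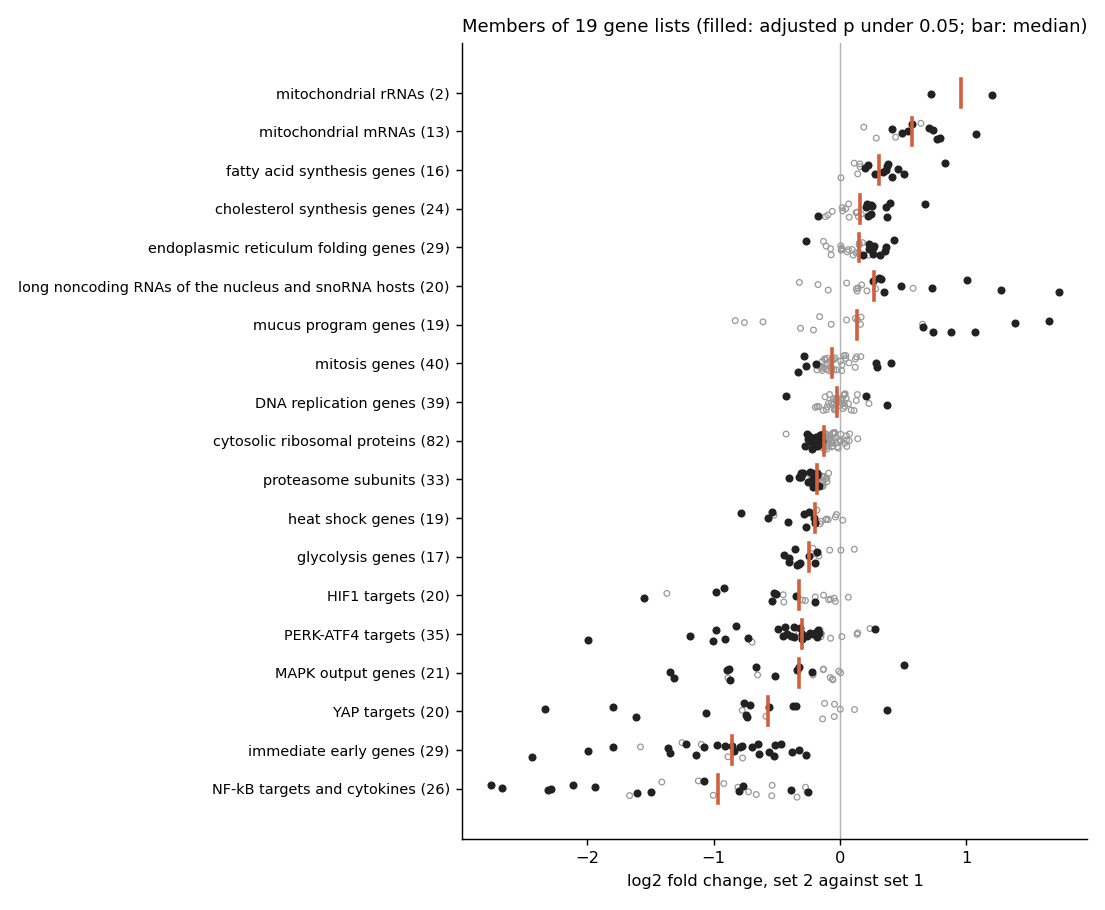
Each point is a gene of 19 lists (numbers of measured members in parentheses), placed by its log2 fold change of set 2 against set 1. Filled points passed an adjusted p of 0.05, open points did not, and the orange bar is the median, which runs from 0.96 for the mitochondrial rRNAs to -0.96 for NF-kB targets.

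Many glycolysis and hypoxia genes were lower in set 2, where 13.5% of all genes fell. Of 17 glycolysis genes 10 fell and none rose (median -0.24), among them Pgam1 (-0.44 ± 0.06, adjusted p 0.000759), Pgk1 (-0.41), Gapdh (-0.40), Tpi1 (-0.33) and lactate dehydrogenase Ldha (-0.31). Ldha lay at 1387, 1763 and 1597 CPM in the mT6 libraries of set 1 and at 1072, 1392 and 1134 CPM in set 2, and at 1179 to 1361 CPM and 992 to 1125 CPM in those of mT69a. Every pair was lower in set 2. Of 20 HIF1 targets 8 fell and none rose (median -0.32), and 14 fell without the mT69a control pair. With a library left out 6 to 14 HIF1 targets and 7 to 13 glycolysis genes fell. The summed level of the HIF1 list was higher in set 2 in the mT69a control pair (1814 and 2227 CPM). It was also higher in the mT69a vector pair (1778 and 1819 CPM), and lower in the other pairs. Pfkfb3, which makes the activator of phosphofructokinase, fell by 1.55 ± 0.22 (adjusted p 0.00436). It went from 41 to 102 CPM to 13 to 23.2 CPM in mT6 and from 11.8 to 23.6 CPM to 7.07 to 10.5 CPM in mT69a. The mTORC1 inhibitor Ddit4 fell by 0.98 ± 0.16 and the mitochondrial Higd1a by 0.52 ± 0.07, while the angiogenic factor Vegfa (-0.45 ± 0.17, adjusted p 0.0978), Pdk1 (-0.07) and Car9 (0.07) did not pass.

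Proteasome and cytosolic ribosomal protein genes, with median transcript lengths of 1354 and 706 bases, fell in 16 of 33 and 23 of 82 cases with no rise (medians -0.18 and -0.13). The share of all genes that fell was 13.5%. The proteasome subunits Psmc4, Psmb4, Psmd4 and Psmb5 fell by 0.31, 0.31, 0.31 and 0.32, and the ribosomal Rplp0 and Rps2 by 0.28 and 0.25. With the length trend removed 10 proteasome and 11 ribosomal protein genes fell. With a library left out 5 to 19 and 7 to 23 fell, the low counts (5 or 6, and 7 or 8) without the mT6 control or knockout pair. Fewer than 16 ribosomal protein genes also fell without the mT6 vector or mT69a control pair, and 10 proteasome genes without the set 2 library of the mT69a control. Of 25 NRF2 and antioxidant genes 7 fell and none rose, among them heme oxygenase Hmox1 (-1.13), ferritin Ftl1 (-0.37 ± 0.06) and Nfe2l2, the NRF2 gene itself (-0.39 ± 0.09), while its classical target Nqo1 stood at -0.03 and did not pass.

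Lipid synthesis genes were higher in set 2 relative to all genes. Of 16 fatty acid synthesis genes 11 rose and none fell (median 0.31), where 12.6% of all genes rose, and of 24 cholesterol synthesis genes 11 rose (median 0.16). Dhcr7, the last enzyme of cholesterol synthesis, lay at 23.1, 20.6 and 20.7 CPM in the mT6 control, knockout and vector libraries of set 1 and at 40.9, 37.2 and 46.2 CPM in set 2. The mT69a libraries held 40.8, 30.5 and 53.1 CPM in set 1 and 54.2, 49.3 and 61.6 CPM in set 2. The sets did not overlap in mT6 and overlapped in mT69a, every pair was higher in set 2, and Dhcr7 rose by 0.67 ± 0.11 (adjusted p 0.0029).

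The SREBP inhibitor Insig1 rose by 0.37 ± 0.08. The synthase Hmgcs1 rose by 0.21 ± 0.06, a call lost without any of the 3 mT6 pairs (adjusted p 0.051 to 0.0677). Fdps, which makes farnesyl diphosphate, fell by 0.17, a call lost without the mT6 control, mT6 knockout or mT69a knockout pair or the set 2 library of the mT69a control (adjusted p 0.051 to 0.084). Of the SREBP genes, Srebf2 stood at -0.06 and did not pass. Srebf1 was called, a call lost without the control or knockout pair of either line. Fatty acid synthase (Fasn) rose by 0.38 ± 0.07, the elongase Elovl6 by 0.41, the desaturases Scd1 and Scd2 by 0.37 and 0.34, acetyl-CoA carboxylase Acaca by 0.28 and the acyl-CoA synthetase Acsl3 by 0.46. Without the mT6 knockout pair 6 genes of either list rose, and without the mT6 control pair 7. On TPM none of the fatty acid genes and 1 of the cholesterol genes was called higher and 4 of the latter lower, with medians of 0.11 and -0.04, or 0.32 and 0.17 above the median of all genes. Of 20 genes of fatty acid oxidation and storage 3 rose and 3 fell, near the shares of all genes (12.6% and 13.5%). DESeq2 called 1 higher and 2 lower, and on TPM none was higher and 3 were lower (median 0.03 in the count fit and -0.15 on TPM). The lipid droplet coat gene Plin2 fell by 0.65 ± 0.08 and the nuclear receptor gene Ppard by 0.70 ± 0.08, and the rises of Acadm, Cpt1a and Slc25a20, of 0.25, 0.24 and 0.26, were each lost with any mT6 library left out, that of Slc25a20 also without the mT69a control or vector pair and with DESeq2. Angptl4 fell by 0.54, a call lost with any of the 12 libraries left out (adjusted p 0.0576 to 0.13).

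**Figure D5:**
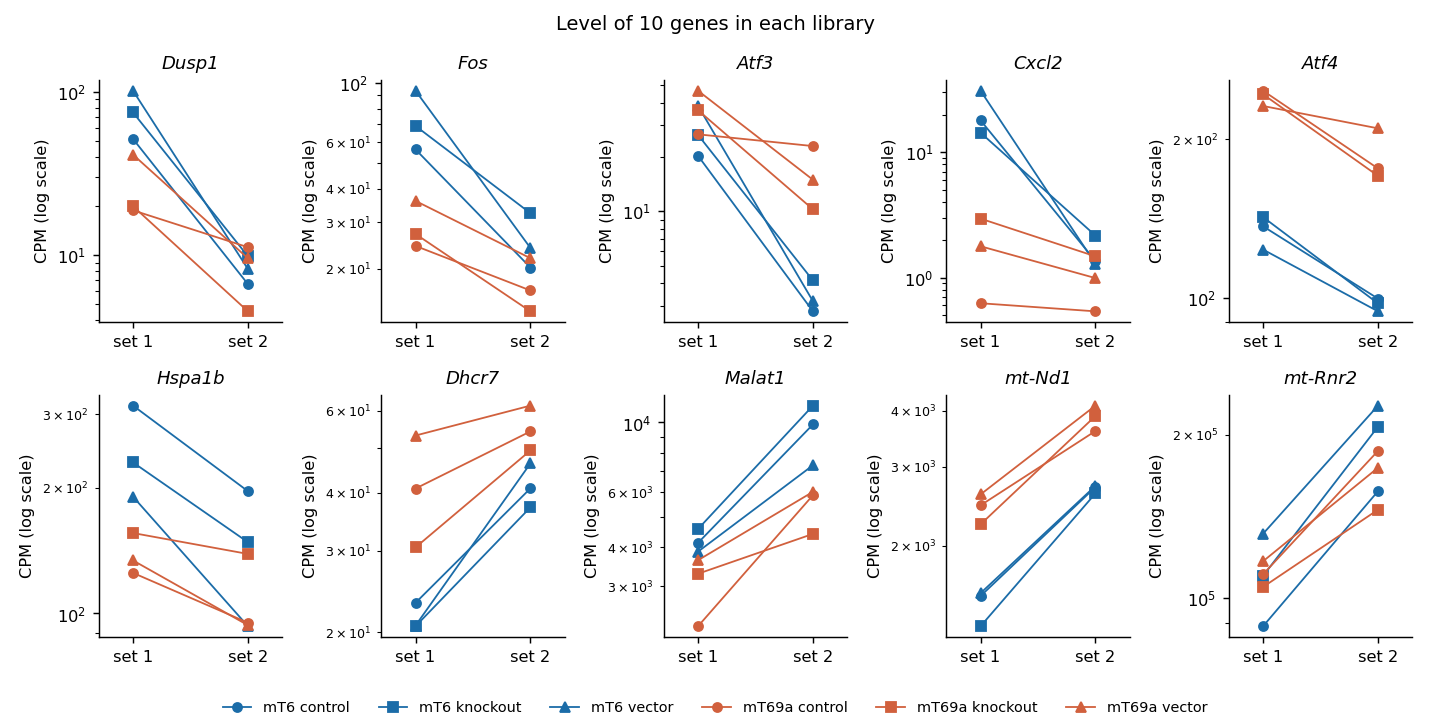
CPM on a log axis in the set 1 and set 2 library of each group, joined by a line, for 10 genes. Dusp1, Fos, Atf3, Cxcl2, Atf4 and Hspa1b are lower and Dhcr7, Malat1, mt-Nd1 and mt-Rnr2 higher in set 2 in every pair, and the mT6 lines of Atf3 and Dusp1 are steeper than the mT69a lines.

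Genes of the cell cycle were mostly not called in the count fit, where 12.6% of all genes rose and 13.5% fell. On TPM 14 of 39 DNA replication, 27 of 40 mitosis, 13 of 19 G1 and 36 of 64 histone genes were lower and none higher. Of all 13265 genes on TPM, 4831 were lower and 260 higher. The medians of these lists on TPM were -0.22, -0.26, -0.28 and -0.33 against -0.21 over all genes. Of 39 DNA replication genes 2 rose (Dtl by 0.38 and Pole by 0.21) and 1 fell, the licensing factor Cdt1 by 0.42, with a median of -0.02, and 4 rose without the mT69a control pair. The call on Pole was lost without any pair but the mT69a control pair (adjusted p 0.0557 to 0.108). Of 40 mitosis genes 3 rose and 4 fell (median -0.07). The proliferation marker Mki67 lay at 428 to 644 CPM in set 1 and at 623 to 863 CPM in set 2 and rose by 0.40 ± 0.05 (adjusted p 0.000715), higher in 6 of 6 pairs, and by 0.26 with the length trend removed. The centrosomal Aspm and the kinetochore gene Cenpf rose by 0.29 and 0.28, while Ube2c and Cdc20, which act in the destruction of mitotic proteins, fell by 0.33 and 0.28, and the kinase Aurka and the kinesin Kif20a by 0.27 and 0.19. The call on Cenpf was lost without the mT6 control pair (adjusted p 0.0506 to 0.0507), and that on Kif20a without any pair but the mT69a knockout pair (0.0506 to 0.138). Without the mT69a control pair 5 mitosis genes rose, and with the length trend removed 1 rose and 4 fell. Cyclin B1 (Ccnb1) stood at -0.16 ± 0.06 (adjusted p 0.0554), Mcm5 at -0.12 and Ccnd1 at -0.06. Of 64 replication-dependent histone genes 3 fell, Hist1h4i (-0.48), Hist1h1c (-0.34) and Hist1h1d (-0.28), the last a call lost without any mT6 pair or the mT69a control pair (adjusted p 0.0559 to 0.0722), and 10 fell without the mT69a knockout pair.

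Of 19 regulators of G1 6 fell and none rose, where 13.5% of all genes fell and 12.6% rose. Cdkn1a (p21), a cyclin-dependent kinase inhibitor, lay at 31.1, 42.2 and 25.9 CPM in the mT6 libraries of set 1 and at 6.14, 12.6 and 5.75 CPM in set 2. For mT69a the levels were 10.6, 12.3 and 10.5 CPM in set 1 and 9.97, 5.13 and 5.23 CPM in set 2, so the mT69a control pair was nearly level. Cdkn1a fell by 1.46 ± 0.32 (adjusted p 0.0234), a call lost without the mT6 knockout or vector pair or the set 2 library of the mT6 control (adjusted p 0.0516 to 0.0824). The inhibitor Cdkn1c fell by 0.55, cyclin D3 (Ccnd3) by 0.35 and Myc by 0.38 ± 0.09. Of 20 p53 pathway genes 4 fell, where 13.5% of all genes fell. They were Cdkn1a, Plk2 (-1.23 ± 0.23), Trp53 itself (-0.47 ± 0.07) and Rrm2b (-0.29). The call on Rrm2b was lost without either control pair or either knockout pair (adjusted p 0.0552 to 0.107). Without the mT6 knockout pair or the set 2 library of the mT6 control 2 of the list fell. The further targets Mdm2 (-0.15), Zmat3 (-0.12) and Ccng1 (0.04) did not pass, and Trp53 in these cells is the mutant allele.

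Clock genes moved apart from each other: 4 of 18 rose and 7 fell in the count fit, and on TPM none was higher and 8 were lower. Over all genes 12.6% rose and 13.5% fell in the count fit. On TPM 260 of 13265 genes were higher and 4831 lower. The PAR-domain factor Tef rose by 0.46, and Per2, Per3 and Cry2 by 0.37, 0.52 and 0.49. The repressor Bhlhe41 fell by 2.0 ± 0.34, Nr1d1 by 0.95, Nfil3 by 0.65, Ciart by 0.56 and Arntl by 0.38, with Bhlhe40 and Cry1 at -0.75 and -0.29. Bhlhe41 was at 3.97 to 6.46 CPM in mT6 and 1.96 to 11.8 CPM in mT69a in set 1, and at 0.352 to 1.13 CPM and 0.606 to 7.31 CPM in set 2, lower in all 6 pairs. Per1 stood at -0.13 and Clock at 0.00 and did not pass. Calls were lost without the mT6 knockout pair for Per2, Per3, Cry2, Nr1d1, Bhlhe40 and Cry1 (adjusted p up to 0.0743, 0.0549, 0.118, 0.125, 0.0518 and 0.0569 over all libraries left out). Those on Per2, Cry2 and Nr1d1 were also lost without the mT6 control pair, that on Bhlhe40 without its set 2 library, that on Cry2 without the mT6 vector or mT69a control pair, and that on Nr1d1 without the mT69a knockout or vector pair. Without the mT6 knockout pair 1 clock gene rose and 4 fell, and without the mT6 control pair 2 rose.

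Of the mucus program, the secretory genes of goblet-like cells that SPDEF is known to drive, 6 of 19 rose and none fell. Among all genes 12.6% rose. The median of the list was 0.31 in mT6 and 0.003 in mT69a. Fitted alone, mT6 had 5 members higher and 0 lower, and mT69a 0 higher and 1 lower. DESeq2 on all libraries called 5 higher and 1 lower. Muc5ac, a gel-forming mucin, lay at 5.18, 15.9 and 5.61 CPM in the mT6 libraries of set 1 and at 15.3, 35.7 and 11.3 CPM in set 2. The mT69a libraries held 4.63, 1.5 and 1.01 CPM in set 1 and 10.2, 1.65 and 1.17 CPM in set 2. Muc5ac rose by 1.07 ± 0.15 (adjusted p 0.00102), higher in 6 of 6 pairs. The membrane mucin Muc4 rose by 0.74, the stress sensor Ern2 by 0.66, the gel-forming Muc6, at 0 to 0.457 CPM in set 1 and 0.689 to 2.0 CPM in set 2, by 1.65, Muc5b by 1.38 and the isomerase Agr2 by 0.88. The call on Muc5b was lost without the mT6 vector pair (adjusted p 0.114 to 0.158) and that on Agr2 without the mT6 knockout or vector pair (0.0642 to 0.0728). The trefoil factors Tff1 and Tff2 stood at -0.83 and -0.31 and did not pass. On TPM none of the 19 was higher and 3 were lower.

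Among epithelial and duct markers 3 of 12 rose and 5 fell, where 12.6% of all genes rose and 13.5% fell. The keratins Krt8, Krt18 and Krt7 fell by 0.54, 0.49 and 0.39 and the duct factor Sox9 by 0.60, while the cell adhesion gene Cdh1 rose by 0.53. Krt8 lay at 1213 to 1858 CPM in set 1 and at 752 to 1196 CPM in set 2 of mT6, and at 1441 to 1805 CPM and 1246 to 1412 CPM in mT69a. It was lower in all 6 pairs. Krt19 fell by 0.64, a call lost without any pair but the mT6 vector pair (adjusted p 0.053 to 0.113), and Epcam rose by 0.20, a call lost without the mT6 control or knockout pair (0.0546 to 0.0599). The tetraspanin Tspan8 rose by 0.19, a call lost without the mT6 knockout or vector or the mT69a control or vector pair (0.0601 to 0.0728), and 1 marker rose without the mT6 knockout pair. Among Wnt targets and stem cell genes 4 of 16 rose and 1, Sox9, fell. The receptors Ephb2, Tnfrsf19 and Lgr4 rose by 0.46, 0.46 and 0.37 and the Wnt inhibitor Rnf43 by 0.27, and on TPM none of the 16 was higher and 2 were lower. None of 9 genes of the epithelial-mesenchymal transition passed.

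The remaining lists held fewer calls, some at shares near those of all genes (12.6% higher, 13.5% lower). Of 10 Notch pathway genes the receptors Notch2 and Notch1 rose by 0.41 (0.25 with the length trend removed) and 0.38, and the ligand Dll1, the target Hes1 and the feedback gene Nrarp fell by 0.80, 0.54 and 0.27. The calls on Notch1 and Nrarp were lost without any mT6 pair or the mT69a control pair (adjusted p 0.0742 to 0.123 and 0.0534 to 0.128), and that on Nrarp also without the mT69a vector pair. On TPM none of the 10 was higher and 4 were lower (median 0.09 in the count fit and -0.04 on TPM). Of 15 TGF-beta and BMP targets 6 fell and none rose, among them Id1 (-0.43), and 2 or 3 fell without the mT6 control or knockout pair. Of 15 glucose and nutrient sensing genes 5 fell, Foxo1 (-0.42), Bcl6 (-0.45), Cited2 (-0.65), Foxo3 (-0.60) and Ccng2 (-0.85), and Foxo3 and Ccng2 were not called without the mT6 control or knockout pair, nor Ccng2 without the mT69a knockout pair (adjusted p 0.0537 to 0.0556 and 0.0638 to 0.0874). Glucocorticoid targets fell in 6 of 12 cases, Dusp1 and the metallothionein Mt2 (-0.53) among them, and in 2 or 3 without the same pairs. Of 5 metallothionein and metal response genes Mt2 and Mt1 (-0.49) fell, and the call on Mt1 was lost without the mT6 control, mT6 knockout or mT69a vector pair (adjusted p 0.0651 to 0.082). Of 29 autophagy and lysosome genes 5 rose and 3 fell, with the lysosomal channel Mcoln1 at 0.34, the cargo receptor Sqstm1 at -0.50 and the transcription factor Tfe3 at -0.29, and 1 or 2 rose without any mT6 pair or the mT69a control pair. DESeq2 called 3 higher and 2 lower, and on TPM none of the 29 was higher and 8 were lower (median 0.07 in the count fit and -0.13 on TPM). Ribosome biogenesis genes fell in 6 of 32 cases, among them Nop2 (-0.33) and Bysl (-0.35), with a rise of Utp20 (0.29) that was lost without any pair but the mT69a control pair (adjusted p 0.0507 to 0.0845). They fell in 2 or 3 without the mT6 control, mT6 vector, mT69a control or mT69a vector pair.

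By size of change, the 12 largest falls among known genes of at least 5 CPM on average with the same direction in all pairs were Cxcl2, Il1a, Dusp1, Ankrd1, Atf3, Krt6a, Pxdc1, Anxa10, Creb5, Ccl20, Sprr1a and Pfkfb3. They run from -2.76 to -1.55 and include the keratin Krt6a (-1.95 ± 0.22) and the cornified envelope precursor Sprr1a (-1.56 ± 0.25). The 12 largest rises, from 1.73 to 1.02, included Neat1, Sema3d, Eppk1, Fcgbp, Kcnq1ot1, mt-Rnr1, Zfp945, mt-Atp8, Muc5ac, Dync1h1 and Mir17hg. Eppk1, a large plakin of the keratin network, went from 6.02 to 24 CPM in set 1 to 23.4 to 53.2 CPM in set 2. The call on Fcgbp was lost without any pair but the mT69a vector pair (adjusted p 0.0675 to 0.135) and on thinned counts, and that on Pxdc1 without the mT6 control, mT6 knockout, mT69a knockout or mT69a vector pair (0.0511 to 0.0978).

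The set effect itself differed between the lines for 182 of 14473 genes (1.26%), and in 172 of the 182 its size was larger in mT6. Ankrd1, Myo15b, Slc40a1, Akr1c19, Krt4 and Tnfaip2 shared the smallest adjusted p (0.00358). The iron exporter Slc40a1 lay at 59, 46.2 and 28.5 CPM in the mT6 libraries of set 1 and at 151, 107 and 61.3 CPM in set 2. For mT69a the levels were 116, 30.3 and 29.6 CPM in set 1 and 151, 30.1 and 29.8 CPM in set 2, so its set effect was 1.26 in mT6 and 0.16 in mT69a. Krt4, a keratin of stratified epithelium, had a set effect of 1.31 ± 0.10 in mT6 and -0.03 ± 0.10 in mT69a. For Myo15b, an unconventional myosin, the values were 1.87 and 0.09, and for the reductase Akr1c19 1.27 and 0.32. The call on Akr1c19 in the 12-library fit was lost without any mT6 pair (adjusted p 0.0505 to 0.0737). Between conditions no gene passed the test of a differing set effect (0%, lowest adjusted p 0.395, edgeR), while 377 had an unadjusted p under 0.05 and DESeq2 called 1.

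The set bears on the comparisons of Spdef groups, since each group holds a library of either set. Without a term for the set, 810 genes differed between knockout and control (477 higher, 333 lower) and 1125 between the libraries labelled vector and knockout (645 higher, 480 lower), both averaged over the lines. With the replicate number as a block these counts were 2171 (1152 higher, 1019 lower) and 2293 (1209 higher, 1084 lower). The common biological coefficient of variation, the relative spread between libraries of a group, was 19.2% without the block and 11.9% with it. Of the variance of log2 CPM over all libraries 21.2% lay within groups, and 38.4% of that lay along the mean difference between the sets. A mean over 6 pairs takes up part of such variance from scatter alone, so the 38.4% cannot be read as the set's share. How far it exceeds the part expected from scatter was not tested.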

How the data were processed

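Organoid RNA was isolated in Trizol, freed of DNA by DNase and turned into stranded libraries of total RNA, per the labels' protocols. The tools listed are FastQC 0.11.8, STAR 2.5.2b and RSEM 1.3.0 with the build GRCm38.p6, per the submitters' processing notes. For each gene and transcript the authors deposited expected counts and TPM. Expected counts were rounded to whole numbers, and transcript values served only for retained introns, lengths and GC content. Of 53715 gene identifiers 53620 were matched to GENCODE M21.

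Genes were filtered with filterByExpr by group and fitted with edgeR 4.0.16 (TMM scaling, robust quasi-likelihood, a mean for each of the 6 groups plus the set, 5 residual degrees of freedom). Adjusted p are Benjamini-Hochberg values over all genes tested, two-sided, with a threshold of 0.05. CPM are scaled by TMM factors (0.839 to 1.20), and log2 fold changes are set 2 over set 1 with standard errors. The set was also fitted within each line, and its differences between lines and conditions were tested as interactions. Library measures were tested with an exact sign-flip permutation over the 6 pairs and adjusted over 15 measures. The replicate numbers were taken as pairing: the within-group differences of the 6 groups correlated at 0.168 to 0.447 in every one of their pairings. DESeq2 1.42.0 and limma 3.58.1 (log2(TPM + 1)) gave alternatives.

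Named genes are the 12 largest rises and falls (at least 5 CPM on average, same direction in all 6 pairs, predicted genes and pseudogenes left out), up to 4 called genes with the smallest adjusted p per list, 5 per interaction, and genes named outright. Other members of lists are named to show what a count holds, and those were chosen after their values were seen. The comparison, the lists and the rule were chosen with earlier results of these data known. R 4.3.3 and Python 3.11.15 were used. Some genes and an allele are not reported here. Depth limits precision most in the shallowest libraries.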

Additional observations from a re-analysis of the deposited data

Results flagged for a closer look

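In 15 named genes the test of the set effect between the lines passed (adjusted p under 0.05, edgeR). Values below are the log2 set effect in mT69a minus that in mT6, so a positive value marks a fall that was smaller, or a rise that was larger, in mT69a. Among genes that fell, the difference was 2.74 for Cxcl2, 2.05 for Pxdc1, 1.77 for Ankrd1, 1.39 for Ccl20, 1.01 for Plk2, 0.93 for Fosl1, 0.87 for Errfi1, 0.52 for Dusp6 and 0.48 for Nfe2l2, each with the larger fall in mT6. Among genes with higher values in set 2 it was -1.76 for Myo15b, -1.63 for Sema3d, -1.50 for Fcgbp, -1.34 for Krt4, -1.09 for Slc40a1 and -0.93 for Akr1c19, each with the larger value in mT6. None of the 15 library measures had a pair standing apart from the other 5 by Dixon's test.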

How the results depend on the processing

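The 3768 genes called between the sets became 61 without the group term, where differences between groups enter the spread, and 1872 to 3648 with a library left out. The other planned settings gave 2597 (DESeq2) to 5101 (log2(TPM + 0.1)). On TPM the split moved to 260 higher and 4831 lower, or 213 and 3453 without a filter. Of 182 named genes that passed, 147 did so with every library left out in turn, 171 with DESeq2 and 174 with the length trend removed. None turned direction in a count fit of several pairs. On log2(TPM + 1) Hmgcs1 turned to -0.01064 and Per2 to -0.006776, with the same values without a filter, and Hmgcs1 to -0.01058 on log2(TPM + 0.1). In the mT6 vector pair alone, chosen after the data were seen for its like depth, Atf5 stood at 0.06727 and Hspa9 at 0.02047, against falls in the fit. Without a filter on low counts 740 genes differed between lines (182 with it), 256 between conditions (0 with it), 1155 in mT69a (221 with it), 1555 between knockout and control and 1740 between vector and knockout. DESeq2 called 2076 in mT6 and 1 between conditions. The replicate block, a paired fit, gave 2171 for knockout against control and 2293 for vector against knockout, and leaving out a library without the block gave 428 to 896 and 647 to 1106. The difference in mitochondrial share was 7.835, 7.317 and 6.92 percentage points without the mT6 control, knockout and vector pairs and 7.56, 8.31 and 8.61 without those of mT69a, where 5 pairs cannot give an exact permutation p under 0.0625. Other causes of these shifts were not tested.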
